A study of Mus musculus with 24 samples.

Results

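Cytochrome P450 genes of families 2 to 4 were followed across the crypts and villi of the mouse small intestine in 4 genotypes. A gene was a member when a probe set assigned to it alone carried a symbol of Cyp2, Cyp3 or Cyp4 followed by a subfamily letter and a number. Cyp4a10 and Cyp2c55 were kept out, and where several probe sets named a gene, the brightest on average was read. This gave 50 members of 18193 genes, read from 50 of the 61 probe sets that named a member.

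Total RNA of separated crypts and villi was hybridised to 24 Affymetrix arrays, 3 for each of 8 groups. The genotypes were wild type (WT), Rb-/- (Rb), E2f1-/-;E2f2-/-;E2f3-/- (TKO) and E2f1-/-;E2f2-/-;E2f3-/-;Rb-/- (QKO), in 2-month-old mice of mixed C57BL/6 and FVB background. Every group, WT included, came from mice whose intestines were taken 7 days after an intraperitoneal injection of beta-napthoflavone, a ligand of the aryl hydrocarbon receptor, so no uninjected tissue was compared. No source used here gives the deleted exons or any Cre driver with its cell type. The labels do not tie arrays to animals, so the p-values measure the spread between arrays, which may be technical.

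P450 enzymes are heme proteins of the endoplasmic reticulum that insert an oxygen atom into lipophilic substrates with electrons from a reductase. Families 2 and 3 oxidise drugs, plant compounds, steroids and bile acids, and several Cyp2c and Cyp2j enzymes also make epoxides of arachidonic acid. Family 4 hydroxylates the far end of fatty acids and eicosanoids. In the gut these enzymes sit mainly in the absorptive cells of the villus, where they meet swallowed compounds first, and receptors such as Pxr (Nr1i2), Car (Nr1i3) and Ppar control many of them.

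All values are deposited log2 expression values, and a difference of 1 is a 2-fold change. A member was called when limma, fitted over all 24 arrays and 18193 genes, gave a Benjamini-Hochberg adjusted p under 0.05. Differences are given ± the standard error (SE) of that fit. Values of different probe sets are not compared with each other, since probes differ in brightness. Members of a subfamily share long stretches of sequence, and 4 members were read from probe sets that Affymetrix marks as possibly shared, so a value of Cyp2b10, Cyp2c23, Cyp2c65 or Cyp4v3 is uncertain as to the gene. In whole crypts and villi, fewer cells of a type and less RNA per cell cannot be told apart.

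Several facts of the arrays bear on what follows. Rb1 read 10.7 to 10.9 in WT villi, 9.71 to 10.4 in TKO, 8.84 to 9.36 in Rb villi and 8.13 to 8.77 in QKO. In crypts the array labelled WT crypts 3 (8.46) stood below the other WT arrays (10.31 and 10.59), and that labelled Rb crypts 2 (10.25) stood above the other Rb arrays (8.23 and 8.87). Both went against their labels, so WT and Rb crypts below mean the arrays so labelled. E2f1 read 6.61 to 7.30 in WT and 6.46 to 7.32 in TKO and QKO, and as the deleted exons are not given here, it checks no label. Bacterial poly-A controls, added before labelling, averaged 5.44 to 7.13 on WT and Rb arrays and 9.70 to 11.9 on TKO and QKO arrays. Batch and E2f status therefore cannot be told apart in TKO minus WT and in QKO minus Rb. By Eif2s3y, a Y-linked gene, WT and Rb crypts were all from females, QKO all from males, and Rb villi and both TKO groups held 2 male arrays and 1 female array each. Villus enterocyte markers fitted the labels: in villi of WT 5 of 6 were called higher, and 6 of 6 markers of crypt and dividing cells were called lower.

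Most members lay in gene clusters (GRCm38.p6). On chromosome 19 between 39061006 and 40187286 lay 9 Cyp2c genes, and on chromosome 15 between 82370527 and 82794452 lay 8 Cyp2d genes. Another 8 Cyp2 genes lay on chromosome 7 between 25802469 and 27133660. Chromosome 4 held 5 Cyp2j genes and 4 Cyp4 genes, chromosome 17 held 5 Cyp4f genes, chromosome 5 held 4 Cyp3a genes, and 7 members lay outside these clusters. The promoters of 39 members, matched by gene identifier in RefSeq, held 250 bases before and 50 after the start. Shown are those of 5 of the 6 members that were called higher in villi than crypts in all 4 genotypes, and that of Cyp2c29, whose group means spread most of the 50. Each runs 5′ to 3′ on the strand of the gene, and capitals mark matches on either strand to AGGTCA (nuclear receptor half-site), GTTAAT (HNF1), GATAAG (zinc finger factors of the gut), TATAAA (basal promoter box), GCGTG (core of the aryl hydrocarbon receptor element) and the E2f motifs TTTGGCGC and TTTCCCGC.
Cyp2b10, chr7:25897408-25897707, plus strand: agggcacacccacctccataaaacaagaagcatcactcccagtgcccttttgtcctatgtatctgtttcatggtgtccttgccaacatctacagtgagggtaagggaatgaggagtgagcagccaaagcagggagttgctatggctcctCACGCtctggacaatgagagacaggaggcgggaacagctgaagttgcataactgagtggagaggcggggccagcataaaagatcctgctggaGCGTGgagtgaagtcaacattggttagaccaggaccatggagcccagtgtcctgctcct
Cyp3a11, chr5:145879805-145880104, minus strand: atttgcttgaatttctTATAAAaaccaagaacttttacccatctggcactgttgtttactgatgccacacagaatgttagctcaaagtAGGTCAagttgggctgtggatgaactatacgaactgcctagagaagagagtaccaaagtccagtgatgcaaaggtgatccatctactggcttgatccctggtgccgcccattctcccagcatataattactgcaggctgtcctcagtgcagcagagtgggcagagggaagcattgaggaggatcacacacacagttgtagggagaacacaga
Cyp3a13, chr5:137921570-137921869, minus strand: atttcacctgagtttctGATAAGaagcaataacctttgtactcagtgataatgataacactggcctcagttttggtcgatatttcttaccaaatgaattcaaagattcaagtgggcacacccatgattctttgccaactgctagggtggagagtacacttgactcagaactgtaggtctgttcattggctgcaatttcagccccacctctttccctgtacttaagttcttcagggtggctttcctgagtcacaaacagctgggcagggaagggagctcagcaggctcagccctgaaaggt
Cyp3a25, chr5:146009569-146009868, minus strand: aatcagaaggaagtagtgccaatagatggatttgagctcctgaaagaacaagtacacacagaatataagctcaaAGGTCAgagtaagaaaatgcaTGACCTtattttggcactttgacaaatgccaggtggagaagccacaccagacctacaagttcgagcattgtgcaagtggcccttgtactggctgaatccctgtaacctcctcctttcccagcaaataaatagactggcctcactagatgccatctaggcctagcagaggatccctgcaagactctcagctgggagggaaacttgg
Cyp4v3, chr8:45333114-45333413, minus strand: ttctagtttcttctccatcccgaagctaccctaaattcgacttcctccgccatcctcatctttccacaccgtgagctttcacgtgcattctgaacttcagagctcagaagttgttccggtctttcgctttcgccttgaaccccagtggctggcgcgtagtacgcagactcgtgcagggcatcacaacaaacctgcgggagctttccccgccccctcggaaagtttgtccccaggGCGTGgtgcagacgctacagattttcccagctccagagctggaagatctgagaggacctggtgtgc
Cyp2c29, chr19:39286835-39287134, plus strand: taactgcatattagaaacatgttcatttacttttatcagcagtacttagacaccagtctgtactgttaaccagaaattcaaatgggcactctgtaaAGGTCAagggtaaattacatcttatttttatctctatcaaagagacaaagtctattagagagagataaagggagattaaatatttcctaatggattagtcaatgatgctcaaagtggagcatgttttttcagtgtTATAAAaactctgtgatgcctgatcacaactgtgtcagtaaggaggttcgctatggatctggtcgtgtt

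The half-site AGGTCA stood once in the Cyp3a11 and Cyp2c29 promoters and 2 times in the Cyp3a25 promoter. Over the 39 members it was found in 12 (30.8%), and over 27025 promoters of all genes in 16.04%. TATAAA was found in 14 of the 39 (35.9%, all promoters 14.2%). GCGTG was found in 9 (23.1%, all promoters 32.5%), 2 times in Cyp2b10 and once in Cyp4v3. GATAAG was found in 4 (10.3%, all promoters 7.43%) and GTTAAT in 2 (5.13%, all promoters 7.20%). TTTGGCGC and TTTCCCGC were in 0 of the 39, and in 0.537% and 1.11% of all promoters. These are matches of letters and not tests of binding, and windows of this length leave out distant enhancers.

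P450 genes were higher in villi than in crypts of WT mice. Of the 50 members 28 were called higher and 0 lower, while the test called 37.4% of all genes (18.8% higher, 18.6% lower). The median difference of the members was 0.71, beside 0.08 for all genes, and 46 of 50 estimates were above 0. The call counts of the clusters ranged from 2 of 5 Cyp4f genes to 4 of 5 Cyp2j genes and 3 of 4 Cyp3a genes.

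The Cyp3a genes encode the main drug-oxidising enzymes of liver and gut. Cyp3a11, the principal mouse form and a Pxr target, read 12.51, 12.57 and 13.18 in WT crypts and 14.18, 14.32 and 14.30 in WT villi. The villus arrays all lay above the crypt arrays, and the difference was 1.51 ± 0.26 (2.86-fold, limma adjusted p = 8.5e-05). Cyp3a25 read 11.75, 11.99 and 12.19 in crypts and 13.69, 13.77 and 13.67 in villi (1.74 ± 0.20, adjusted p = 7.3e-07), and its arrays did not overlap. Cyp3a13, which lies apart from the cluster on the same chromosome, differed by 1.28 ± 0.32 (adjusted p = 0.0029). Cyp3a44, a gene with a female-biased level in mouse liver, stood near the bottom of the scale at 3.19 to 3.58 in crypts and 4.49 to 4.91 in villi (1.31 ± 0.18, adjusted p = 8.6e-06).

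Among the Cyp2c genes, Cyp2c29, an arachidonic acid epoxygenase, had the largest villus difference of all members. It read 11.67, 12.35 and 11.90 in WT villi and 7.57, 8.38 and 10.51 in WT crypts, where the array labelled WT crypts 3 was the high one. The difference was 3.15 ± 0.69 (8.90-fold, adjusted p = 0.0010). Cyp2c38, another epoxygenase, read 5.14, 5.24 and 5.26 in crypts and 6.65, 6.97 and 7.81 in villi (1.93 ± 0.26, adjusted p = 6.4e-06). Its villus arrays all lay above its crypt arrays, and the third was the highest. Cyp2c23, whose rat counterpart is the main renal epoxygenase, rose by 2.18 ± 0.47 (adjusted p = 0.00095), and Cyp2c65, which also oxidises arachidonic acid, by 1.38 ± 0.25 (adjusted p = 0.00018).

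In the Cyp2d cluster 5 of 8 genes and in the Cyp2j cluster 4 of 5 were called higher in villi, and Cyp2d40 (-0.02) and Cyp2j13 (-0.05) had estimates below 0. Cyp2d22, often set beside human CYP2D6, rose by 2.10 ± 0.44 (adjusted p = 0.00063) and Cyp2d26 by 1.55 ± 0.27 (adjusted p = 0.00011). Cyp2b10, the classical Car target of mouse liver, read 11.53, 11.09 and 12.10 in crypts and 12.80, 13.05 and 12.85 in villi (1.32 ± 0.30, adjusted p = 0.0014), without overlap. Its other probe sets gave 1.495 and 1.872. Cyp2j9 rose by 2.26 ± 0.49 (adjusted p = 0.00089). Cyp2j5, a renal epoxygenase, was dim and rose by 0.69 ± 0.10 (adjusted p = 2.3e-05), but its other probe set differed by 0.18, and the mean of both by 0.43.

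In family 4, Cyp4v3, the counterpart of the human fatty acid hydroxylase gene CYP4V2, read 12.11, 11.91 and 11.93 in WT crypts and 13.39, 13.38 and 13.44 in WT villi (1.42 ± 0.21, adjusted p = 2.4e-05). These 6 arrays fell into separate ranges with little spread. Cyp4f13 rose by 1.85 ± 0.34 (adjusted p = 0.00019), Cyp4b1 by 1.4995 ± 0.41 (adjusted p = 0.0061) and Cyp4f14 by 0.96 ± 0.19 (adjusted p = 0.00047). Cyp2r1, a vitamin D 25-hydroxylase, was called at 0.72 ± 0.27 (adjusted p = 0.036) but lost the call without any 1 of 5 arrays (adjusted p up to 0.14, without WT villi 3). Of the 20 members that the naming rule picks in this comparison, the other 19 were called whichever 1 array was left out.

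The remaining members called higher in WT villi were Cyp2a12, Cyp2b9, Cyp2b13, Cyp2c68, Cyp2d10, Cyp2d12, Cyp2d13, Cyp2j6, Cyp2j11 and Cyp4a31, with differences from 0.40 (Cyp2b13) to 1.71 (Cyp2j6). Of the 28 called members, 9 stayed under 6.39, the median over all genes, in each group. Among the 22 not called, Cyp2s1 (0.04), Cyp2u1 (0.16) and Cyp4f16 (0.44) read above 6.39 in WT and the rest below it. Other, dimmer probe sets differed by 0.52 for Cyp2u1 and 0.96 for Cyp4f16, each with its WT villus arrays above its WT crypt arrays. In all, 16 members were called in none of the 14 comparisons: Cyp2b19, Cyp2c37, Cyp2c39, Cyp2c50, Cyp2c54, Cyp2d40, Cyp2g1, Cyp2j13, Cyp2s1, Cyp3a16, Cyp4a14, Cyp4f15, Cyp4f16, Cyp4f18, Cyp4f39 and Cyp4x1. The share of all genes without any call was not counted, so nothing particular to the family can be read from this number.

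**Figure D1:**
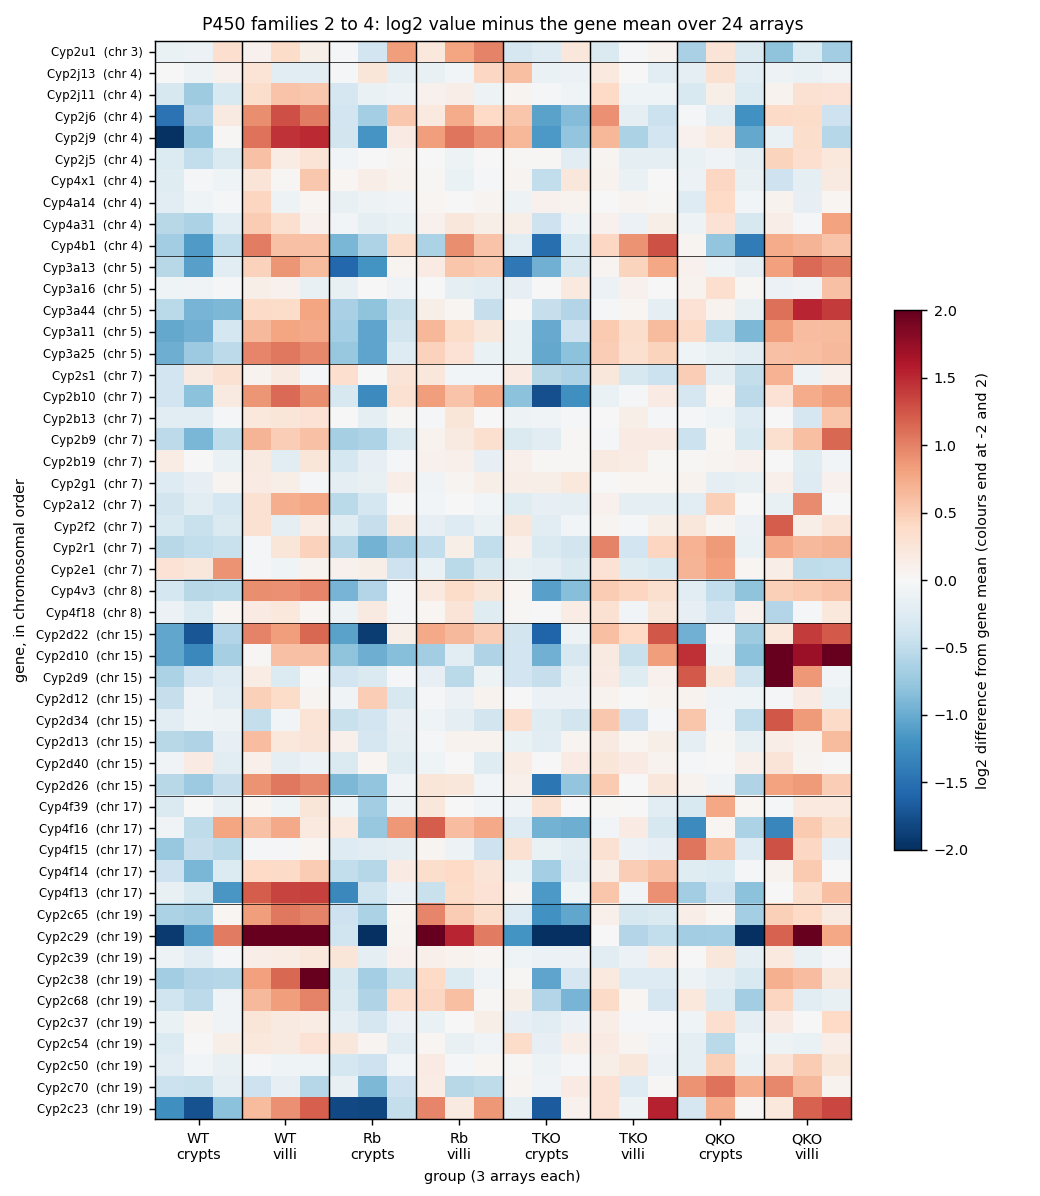
Log2 value of each member on each of 24 arrays minus its mean over all arrays (colour), with genes in chromosomal order (rows) and groups of 3 arrays (columns). Along their own rows, Cyp2c29 and Cyp4f13 are reddest in WT villi, and Cyp2d10 and Cyp3a44 in QKO villi.

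The higher level in villi was called for fewer members in the mutants than in WT, and so it was for all genes, of which 18.8% were called higher in WT. In Rb 12 members were called higher and 0 lower (7.61% and 9.65% of all genes). In TKO 9 were called higher and 0 lower (6.43% and 8.99% of all genes), and in QKO 16 higher and 1 lower (13.5% and 19.9% of all genes, 33.4% in all). The member medians were 0.30, 0.18 and 0.36, beside -0.03, -0.00 and 0.01 for all genes. The calls depended on single arrays more than in WT: Rb had 3 to 15 calls with 1 array left out (3 without Rb crypts 2, and 7 without Rb crypts 1 or Rb villi 1), TKO 2 to 11 (2 without TKO villi 3, 3 without TKO crypts 2) and QKO 11 to 18. In Rb sex differed too, with the crypt arrays all female and 2 male arrays in villi. With sex as a covariate, calls over all genes in Rb fell from 3140 to 1871. In that run Cyp2b9 lost its Rb call (0.63, adjusted p = 0.058), while Cyp2b10, Cyp2c23, Cyp2c29 and Cyp2c65 kept theirs.

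Called higher in villi in all 4 genotypes were Cyp2b10, Cyp2d22, Cyp3a11, Cyp3a13, Cyp3a25 and Cyp4v3. Calls in all 4 genotypes were not counted over all genes, so this count has no background. Of these 6, Cyp3a25 alone kept its call in every mutant whichever 1 array was left out. For Cyp3a11 the differences were 1.12 ± 0.26 in Rb (adjusted p = 0.0055), 1.02 ± 0.26 in TKO (adjusted p = 0.011) and 1.03 ± 0.26 in QKO (adjusted p = 0.0036). Its villus arrays read 14.20, 13.89 and 13.76 in Rb, 14.05, 13.88 and 14.16 in TKO and 14.37, 14.16 and 14.17 in QKO. Each lay above every crypt array of its own genotype, whose highest values were 13.17, 13.39 and 13.92. The TKO call was lost without TKO crypts 2 (adjusted p = 0.10) or TKO villi 3 (adjusted p = 0.063).

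Cyp3a25 was called in each mutant under every array left out, at 0.90 ± 0.20 in Rb, 1.07 ± 0.20 in TKO and 0.77 ± 0.20 in QKO (adjusted p = 0.0040, 0.0023 and 0.0044). With WT crypts 3 and Rb crypts 2 left out, 3 of the 12 Rb calls were left, which were Cyp2c23, Cyp3a11 and Cyp3a25. Cyp2e1, which oxidises ethanol, was the 1 member called lower in villi, in QKO. It read 5.53, 5.66 and 4.88 in QKO crypts and 4.98, 4.34 and 4.35 in QKO villi, with overlapping arrays (-0.80 ± 0.22, adjusted p = 0.0083).

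**Figure D2:**
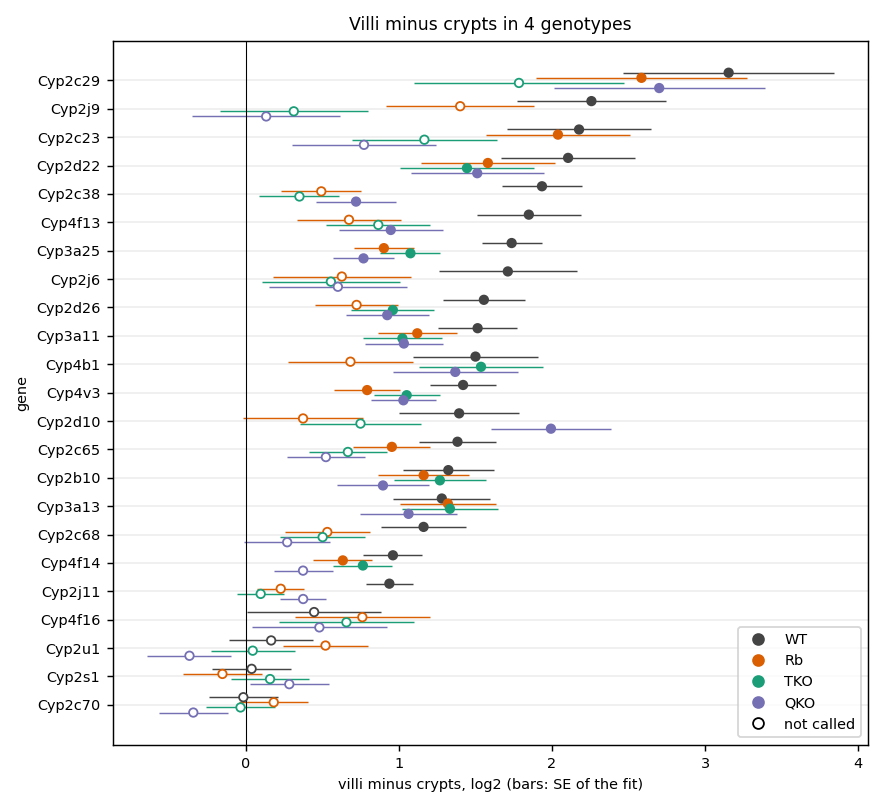
Villi minus crypts (log2, points) with the SE of the fit (bars) in WT, Rb, TKO and QKO for 23 members whose mean passed 6.39 in a group; filled points were called. For Cyp3a25 the WT point lies at 1.74 and those of the mutants at 0.77 to 1.07, whereas for Cyp2d10 the QKO point lies at 1.99 and the WT point at 1.39. Cyp2d10 is among the 23 through its QKO villus mean alone.

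Whether the villus level itself differed between genotypes was asked directly. In Rb minus WT villi 7 members were called lower and 0 higher, beside 6.19% of all genes called lower and 8.59% higher. The 7 were Cyp2c38, Cyp2d26, Cyp2j5, Cyp3a25, Cyp3a44, Cyp4f13 and Cyp4v3. The median of the 50 was -0.28 (all genes -0.08), and 45 estimates were below 0, where 62.8% of all genes were. In TKO minus WT villi 7 were again called lower and 0 higher (3.57% and 6.21% of all genes, 9.77% in all): Cyp2a12, Cyp2b10, Cyp2c29, Cyp2c38, Cyp2c65, Cyp2j5 and Cyp3a44. Here the median was -0.24 (all genes -0.03) and 39 estimates were below 0 (56.1% of all genes). Both comparisons use the same 3 WT arrays, and with 1 array left out they gave 3 to 5 and 3 to 6 calls (lowest without WT villi 3 or Rb villi 3, and without TKO villi 2).

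Cyp2c38 stood lower in both mutants. Its villus arrays read 6.22, 5.55 and 5.76 in Rb and 6.01, 5.57 and 5.57 in TKO, all below the lowest WT villus array at 6.65. The differences from WT were -1.30 ± 0.26 in Rb (adjusted p = 0.0013) and -1.43 ± 0.26 in TKO (adjusted p = 0.0011). In both it was called under each alternative run, sex as a covariate (-1.14, adjusted p = 0.018, and -1.27, adjusted p = 0.014) and each array left out included.

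Cyp2c29 read 9.48, 8.89 and 8.99 in TKO villi, each more than 2 units below the lowest WT villus array. It fell by 2.85 ± 0.69 (7.23-fold lower, adjusted p = 0.0094). In Rb villi it read 11.845, 10.997 and 10.512, which overlapped WT (-0.85 ± 0.69, adjusted p = 0.46). The direct difference between Rb and TKO was not tested. Cyp2c65 read 12.30, 11.88 and 11.90 in TKO villi, below all WT arrays at 13.03, 13.25 and 13.18 (-1.13 ± 0.25, adjusted p = 0.0055). Cyp2b10 fell by 0.98 ± 0.30 in TKO villi (adjusted p = 0.040), from 12.80 to 13.05 on WT arrays to 11.78 to 12.09. Without any 1 of the 6 arrays the Cyp2b10 call was lost (adjusted p up to 0.13).

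In Rb villi Cyp3a25 read 13.18, 13.01 and 12.58 beside 13.67 to 13.77 in WT (-0.79 ± 0.20, adjusted p = 0.0080, and 0.069 without Rb villi 3). Cyp4f13 read 8.004, 8.809 and 8.745 beside 9.66 to 9.82 (-1.24 ± 0.34, adjusted p = 0.015, and 0.094 without Rb villi 1 or 0.055 without WT villi 3). Neither gene's Rb arrays reached its WT arrays. Cyp2d26 (-0.84 ± 0.27) and Cyp4v3 (-0.66 ± 0.21), at adjusted p = 0.041 each, lost the call without any 1 of the 6 arrays. The dim genes Cyp2j5 and Cyp3a44 differed by -0.37 ± 0.10 and -0.62 ± 0.18 in Rb and by -0.44 ± 0.10 and -0.58 ± 0.18 in TKO. The Cyp3a44 call in TKO was lost without any 1 of the 6 arrays (adjusted p up to 0.22), and that in Rb without WT villi 3 or Rb villi 3 (adjusted p up to 0.16). Cyp2j5 lost its Rb call without WT villi 1 or Rb villi 2 (adjusted p up to 0.14) and its TKO call without WT villi 1 or TKO villi 2. In TKO its other probe set differed by -0.08, and the mean of both by -0.26 (adjusted p = 0.090).

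Between these villus groups sex differed, and in TKO the poly-A controls too. The WT villus arrays were all female and 2 of 3 Rb and TKO villus arrays male, and with sex as a covariate 1 of 7 calls was left in each comparison, Cyp2c38. The other 6 differences kept their sign in each comparison. In TKO they were -2.46 for Cyp2c29, -0.93 for Cyp2b10, -0.88 for Cyp2c65, -0.64 for Cyp2a12, -0.41 for Cyp3a44 and -0.38 for Cyp2j5 (adjusted p = 0.064 to 0.28). In Rb they lay between -0.97 (Cyp4f13) and -0.31 (Cyp2j5), at adjusted p = 0.11 to 0.36. The female villus array read 5.55 for Cyp2c38 in Rb and 6.01 in TKO, below the WT arrays, and that of TKO read 9.48 for Cyp2c29 and 12.30 for Cyp2c65, also below all WT arrays. The male TKO arrays lay further below WT, at 5.57 for Cyp2c38, 8.89 and 8.99 for Cyp2c29 and 11.88 and 11.90 for Cyp2c65. In Rb the male arrays read 5.76 and 6.22 for Cyp2c38, above the female array. No enterocyte marker was called in either comparison (list medians -0.09 and -0.06), whereas 2 of 6 crypt and dividing cell markers were called higher in Rb villi and 1 of 6 in TKO villi. Among the enterocyte markers, Apoa1 (14.77 to 14.87) and Apoa4 (14.57 to 14.70) read close to the highest value of the series (14.9) in these villus groups, where a change could hardly show. The mean of that crypt list read 7.72 to 8.01 on WT villus arrays, 8.85 to 8.98 in Rb and 7.89 to 8.78 in TKO, and goblet cell markers, 3 of 3 called lower in TKO villi, read 13.5 to 13.7 in WT and 11.98 to 12.56 in TKO. The part of these cells in the results was not tested.

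**Figure D3:**
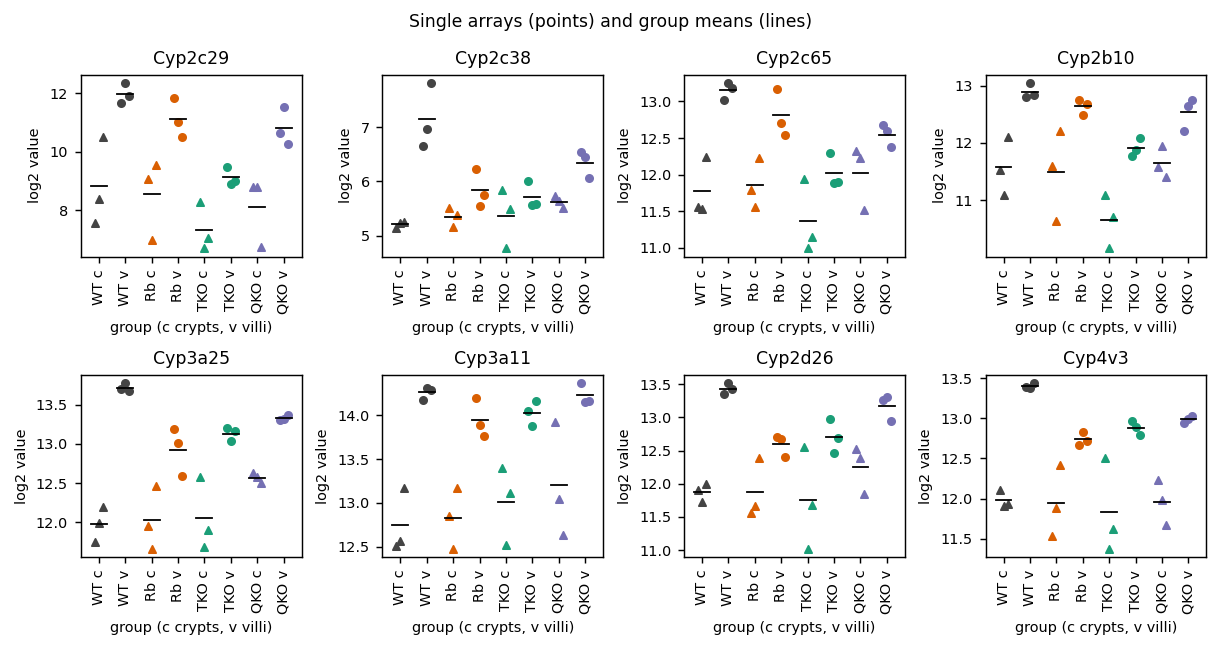
Log2 values of 8 members on single arrays (triangles crypts, circles villi) and group means (lines) in 8 groups. Cyp2c38 and Cyp2c65 are highest in WT villi with every TKO villus array below them, and Cyp2c29 in TKO villi lies near 9 against 11.7 to 12.4 in WT villi.

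In crypts no member was called for either mutant. Between the arrays labelled Rb and WT, limma called 0.0% of all genes, and 2 of 50 members had an unadjusted p under 0.05 (3.90% of all genes). Without WT crypts 3 and Rb crypts 2, the test called 18 genes, 0 of them members, and 1873 of 18193 genes had an unadjusted p under 0.05 in place of 709. The member median was 0.08. In TKO minus WT crypts 0 members were called beside 4.73% of all genes (1.93% higher and 2.8% lower), and 9 had an unadjusted p under 0.05 (19.7% of all genes). Cyp2c29 showed the widest spread there, at 8.28, 6.69 and 7.04 in TKO (-1.48 ± 0.69, adjusted p = 0.24), which overlapped WT. Other tools were not run.

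The difference in villi was compared with the difference in crypts in 1 contrast. For Rb minus WT, 2 members were called lower in villi minus crypts and 0 higher (1.1% and 4.12% of all genes, 5.22% in all), and for TKO minus WT 5 lower and 0 higher (0.737% and 2.69%, 3.43% in all). Cyp2c38 was called in both, at -1.44 ± 0.37 for Rb (adjusted p = 0.024) and -1.59 ± 0.37 for TKO (adjusted p = 0.018). Its crypt arrays read 5.51, 5.15 and 5.39 in Rb and 5.85, 4.77 and 5.50 in TKO, around the WT crypt values. Cyp2j5 was called in both as well (-0.72 ± 0.15, adjusted p = 0.0044, and -0.74 ± 0.15, adjusted p = 0.0078), though the mean of its probe sets gave -0.37 in TKO (adjusted p = 0.13), and Cyp2b9 (-0.96 ± 0.25), Cyp2j11 (-0.84 ± 0.21) and Cyp3a44 (-1.03 ± 0.26) in TKO. Of all 50, 39 and 42 estimates were below 0 (60.3% and 56.2% of all genes). The Cyp2c38 calls of this contrast were lost without WT villi 3, which held its highest value (adjusted p = 0.077 for Rb and 0.062 for TKO). The Rb call was also lost without any 1 of WT crypts 1, Rb crypts 1 and 3 and Rb villi 2 and 3, and the TKO call without any 1 of TKO villi 2 and TKO crypts 1 and 3 (adjusted p up to 0.072). With sex as a covariate the Rb call of Cyp2c38 was lost (-1.28, adjusted p = 0.091) and the TKO call was kept (-1.59, adjusted p = 0.020). With 1 array left out the contrast gave 1 to 3 calls for Rb and 1 to 5 for TKO. Of the 12 such runs for TKO, Cyp2b9 was called in 4, Cyp2j11 in 5 and Cyp3a44 in 5 (adjusted p up to 0.12, 0.10 and 0.10), and Cyp2j5 in 12.

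Loss of Rb on top of E2f1 to E2f3 was read as QKO minus TKO. In villi 4 members were called higher and 0 lower, beside 6.68% of all genes (5.51% higher and 1.17% lower): Cyp2b9, Cyp2d10, Cyp2j5 and Cyp3a44. The member median was 0.17 (all genes 0.04). In crypts 0 members were called (1.61% of all genes), with 10 members at an unadjusted p under 0.05 (17.3% of all genes).

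Cyp2d10, a Cyp2d gene of mouse liver, was highest in QKO villi. It read 6.84, 5.95 and 6.40 there, 4.40, 3.79 and 5.06 in TKO villi, 3.53, 4.02 and 3.63 in Rb villi and 4.25, 4.81 and 4.82 in WT villi. Each QKO villus array lay above every array of the other villus groups. The differences were 1.98 ± 0.39 from TKO (3.94-fold, adjusted p = 0.0042) and 2.67 ± 0.39 from Rb (6.37-fold, adjusted p = 6.8e-05), and both calls held without any 1 array. In QKO crypts it spread from 3.41 to 5.68, and villi exceeded crypts by 1.99 ± 0.39 (adjusted p = 0.00053).

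Cyp3a44 read 5.22, 5.64 and 5.51 in QKO villi, beside 4.08, 4.15 and 3.93 in TKO villi and 4.24, 4.15 and 3.65 in Rb villi. It too stood above every array of the other villus groups, at 1.41 ± 0.18 over TKO (adjusted p = 7.5e-05) and 1.45 ± 0.18 over Rb (adjusted p = 1.2e-05), both called without any 1 array. The QKO arrays were all male. The male arrays of Rb and TKO villi reached 3.63 and 5.06 for Cyp2d10 and 4.24 and 4.15 for Cyp3a44, below each QKO villus array, and with sex as a covariate both were called over TKO (2.05 for Cyp2d10 and 1.49 for Cyp3a44). Poly-A controls read 11.3 to 11.9 in QKO villi and 10.5 to 10.8 in TKO villi, and T cell markers 10.1 to 10.7 and 8.76 to 9.61. Their part was not tested.

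Cyp2b9, a gene with a female-biased level in mouse liver, differed by 0.59 ± 0.18 from TKO (adjusted p = 0.049), and without QKO villi 3, its highest array, by 0.36 (adjusted p = 0.26). That call was also lost without QKO villi 2, without any 1 TKO villus array and with sex as a covariate (0.55, adjusted p = 0.092). Cyp2j5 differed by 0.43 ± 0.10 (adjusted p = 0.015) but its other probe set by -0.09. All 4 members were dim: Cyp2d10 alone passed 6.39 in a group mean, and only through QKO villi, the group where it was high (6.40).

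In QKO minus Rb the poly-A controls and sex differed between the groups, sex in full in crypts and by 1 female array in villi. With sex as a covariate 3 of the 4 members called in crypts and 9 of the 10 called in villi were called again, without Cyp2c23 (adjusted p = 0.23) and Cyp2b9 (adjusted p = 0.082). In crypts this run cannot separate sex from genotype, because only Rb villi and the TKO groups held both sexes and gave its sex term. In villi 9 members were called higher and 1 lower (14.2% and 8.02% of all genes), with a median of 0.21 (all genes 0.08). Beside Cyp2d10, Cyp3a44, Cyp2b9 and Cyp2j5 these were Cyp2c70, Cyp2d9, Cyp2d34, Cyp2f2 and Cyp2r1, so 3 of 8 members of the Cyp2d cluster were higher. Cyp2d34 read 5.59, 5.20 and 4.72 in QKO villi and 3.97 to 4.25 in Rb villi (1.05 ± 0.27, adjusted p = 0.0068). Cyp2d9, a male-biased testosterone hydroxylase gene of mouse liver, read 6.57, 5.38 and 4.46 in QKO villi and 3.97 to 4.41 in Rb villi (1.23 ± 0.37, adjusted p = 0.020). QKO villi 1 was its high array, without which the difference was 0.67 (adjusted p = 0.13), and without Rb villi 2 it was 1.09 (adjusted p = 0.081). The count fell to 6 without Rb villi 2.

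Cyp2u1, a fatty acid hydroxylase gene, was the member called lower. It read 6.01, 6.55 and 6.12 in QKO villi and 7.03, 7.60 and 7.80 in Rb villi, with no overlap (-1.26 ± 0.27, adjusted p = 0.0023), and its other probe set differed by -0.75. The call held without any 1 array.

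In crypts 4 members were called higher and 0 lower (13.4% and 3.78% of all genes). Cyp2c70, which makes the muricholic bile acids of mouse liver, read 6.92, 7.10 and 6.74 in QKO crypts and 5.87, 5.12 and 5.61 in Rb crypts (1.39 ± 0.23, adjusted p = 0.00029), without overlap. Cyp2r1 read 4.57, 4.72 and 3.75 in QKO crypts beside 2.93 to 3.32 (1.21 ± 0.27, adjusted p = 0.0032, and 1.88 with sex as a covariate). Both calls held without any 1 array. Cyp2c23 (1.502 ± 0.47, adjusted p = 0.032) and Cyp3a44 (0.70 ± 0.18, adjusted p = 0.010) were called too. Cyp2c23 lost its call without any 1 of Rb crypts 1 or 2 and QKO crypts 2 or 3 (adjusted p up to 0.15) as well as with sex as a covariate, and Cyp3a44 without QKO crypts 1 (0.59, adjusted p = 0.052). Pancreatic acinar genes were high on QKO crypts 1 and 3, with Cpa1 at 8.29 and 8.63 against 5.12 on QKO crypts 2. Of 5 measured hepatocyte markers 0 were called in crypts (17.2% of all genes) and 2 higher in villi (14.2% of all genes). Their mean read 6.90 to 7.23 in QKO crypts and 6.81 to 7.02 in Rb crypts. Of these markers, Alb, Ahsg and Tat stayed under 6.39 on all 24 arrays, while Ttr reached 7.50 and Cps1 13.48. Cps1 was high in WT crypts too (13.22 to 13.31), so the list mean is a poor measure of liver RNA, whose part was not tested.

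**Figure D4:**
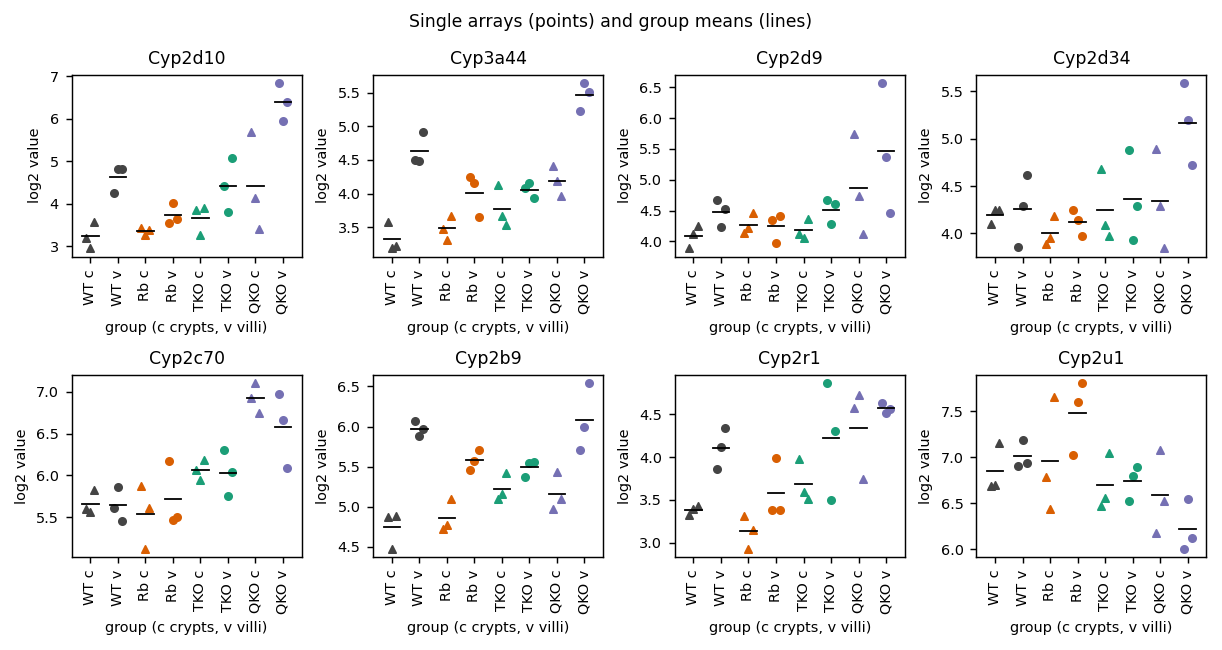
Log2 values of 8 members on single arrays (triangles crypts, circles villi) and group means (lines) in 8 groups. The QKO villus arrays of Cyp2d10 (5.95 to 6.84) and Cyp3a44 (5.22 to 5.64) lie above all other villus arrays, whereas those of Cyp2d9 spread from 4.46 to 6.57 and those of Cyp2u1 lie below all Rb villus arrays.

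Across the 8 groups, 25 of the 50 members had their highest mean in WT villi and 13 in QKO villi. No member was highest in WT or Rb crypts, 2 were highest in TKO crypts and 4 in QKO crypts. A group mean above the median over all genes was reached by 16 of the 25 and by 3 of the 13. It was reached by 0 of the 2 and by 1 of the 4. The other maxima are ranks among dim values. The group with the highest mean was not counted over all genes, so these counts have no background. The range of group means was widest for Cyp2c29 (4.64), Cyp2d10 (3.16) and Cyp2c23 (2.28), and narrowest for Cyp2j13 (0.22). The other members lay between.

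Genes that serve P450 enzymes were read from lists. All 3 measured electron carriers of the cytochrome b5 system were higher in villi of WT mice: Cyb5a (0.70 ± 0.12, adjusted p = 7.2e-05), Cyb5b (0.82 ± 0.15, adjusted p = 0.00018) and Cyb5r3 (0.75 ± 0.24, adjusted p = 0.016). In TKO villi Cyb5a fell by 0.55 ± 0.12 against WT (adjusted p = 0.0037). Of 9 measured heme genes 0 were called in WT villi minus crypts, where 37.4% of all genes were. In QKO minus Rb 3 were called higher and 0 lower in crypts (13.4% and 3.78% of all genes), and 2 higher and 1 lower in villi (14.2% and 8.02%). Fech, the last enzyme of heme synthesis, rose in crypts (0.61 ± 0.12, adjusted p = 0.0010) and villi (0.71 ± 0.12, adjusted p = 0.00018).

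Of 15 measured regulators 6 were higher and 1 lower in WT villi, beside 18.8% and 18.6% of all genes. Nr1i2, encoding Pxr, read 8.09, 7.64 and 8.07 in crypts and 9.27, 9.46 and 9.22 in villi (1.38 ± 0.24, adjusted p = 8.8e-05). Pparg (1.34 ± 0.23), Nr1i3 (0.98 ± 0.30), Hnf4g (0.66), Ahr (0.57 ± 0.20) and Arnt (0.54) were the other rises and Cebpa the fall (-0.64 ± 0.14). Ahr, the aryl hydrocarbon receptor gene, read 8.91, 8.94 and 8.70 in WT villi, 8.02, 8.13 and 7.90 in TKO villi and 8.49, 9.19 and 9.44 in QKO villi. It was lower in TKO than in WT villi (-0.83 ± 0.20, adjusted p = 0.011), without overlap, and higher in QKO than in TKO villi (1.02 ± 0.20, adjusted p = 0.0042). Pparg was lower in Rb than WT villi (-0.74 ± 0.23, adjusted p = 0.035) and higher in QKO than TKO villi (0.87 ± 0.23, adjusted p = 0.027).

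Of 8 measured genes that handle epoxides and related lipid mediators, 4 were higher and 1 lower in villi of WT mice, beside 18.8% and 18.6% of all genes. Ephx2, the soluble epoxide hydrolase gene, rose by 1.96 ± 0.28 (adjusted p = 1.0e-05), Ephx1 by 1.42 ± 0.46 (adjusted p = 0.019) and the prostaglandin dehydrogenase gene Hpgd by 1.34 ± 0.21 (adjusted p = 3.7e-05). Pla2g4a, a phospholipase that frees arachidonic acid, fell by 1.91 ± 0.29 (adjusted p = 2.9e-05). In QKO minus Rb, Ephx1 was higher in crypts (2.21 ± 0.46, adjusted p = 0.0022) and villi (1.60 ± 0.46, adjusted p = 0.015).

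The neighbouring gene Cyp2c55, not a member, read 12.33, 12.06 and 12.34 in WT villi and 8.63, 8.78 and 8.69 in TKO villi (-3.54 ± 0.37, adjusted p = 2.8e-06). Cyp1a1, the main aryl hydrocarbon receptor target, rose from WT crypts to villi by 4.09 ± 0.96 (adjusted p = 0.0019) and was lower in TKO than in WT villi (-3.04 ± 0.96, adjusted p = 0.048).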

How the data were processed

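Expression was measured on 24 Affymetrix arrays, per the labels' protocols from 3 ug of Trizol-extracted RNA labelled as biotinylated cRNA. The authors deposited 1 log2 value per probe set and array (2.29 to 14.9, array medians 4.97 to 5.26). How they summarised and normalized the log2 values is not stated by any source used here, and the log2 scale was inferred from this range. Of 45101 probe sets, 34945 named 1 gene and 932 several. Of those that named 1 gene, 34741 had a gene identifier found in RefSeq and took the RefSeq symbol, whether or not it differed. Per gene the probe set with the highest mean was kept (18193 genes). limma 3.58.1 in R 4.3.3 fitted 1 mean per group over all arrays and let the prior variance follow intensity (16 residual and 4.86 prior degrees of freedom), for 12 comparisons of 2 groups and 2 differences of differences, with Benjamini-Hochberg adjustment over all genes. The fit was tested on simulated data.

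Members and gene lists were chosen with earlier results of these data known. Named members were, per comparison, up to 5 rises and 5 falls among those called without overlap of arrays, and those called in 3 or more of the 12 comparisons. Any other member named was chosen after its values were seen. No arrays were identical, and replicate correlations were 0.978 to 0.995. Deviations from group means were compared between crypts and villi of the same replicate number. They correlated at 0.25 to 0.64 in TKO and QKO and at -0.24 to 0.13 in WT and Rb, so the numbers paired arrays in TKO and QKO. Alternatives tried were the replicate number as a block, sex as a covariate, quantile normalization, median centring of arrays, no trend, removal of dim genes, averaging over probe sets, and leaving out each array or both WT crypts 3 and Rb crypts 2. The number of arrays limits the precision. Protein sequences were not used here.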

Additional observations from a re-analysis of the deposited data

Results flagged for a closer look

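The genotype difference in villi minus that in crypts passed the test for 7 pairs of member and genotype. For Rb against WT these were Cyp2c38 (-1.44) and Cyp2j5 (-0.72). For TKO against WT they were Cyp2b9 (-0.96), Cyp2c38 (-1.59), Cyp2j11 (-0.84), Cyp2j5 (-0.74) and Cyp3a44 (-1.03). All 7 were negative, so the mutant lay lower relative to WT in villi than it did in crypts. With the mean of its probe sets Cyp2j5 gave -0.37 for TKO and was not called (adjusted p = 0.13). With sex as a covariate Cyp2c38 gave -1.28 for Rb and was not called (adjusted p = 0.091). In 12 runs that each left out 1 array, the TKO calls of Cyp2b9, Cyp2j11 and Cyp3a44 held in 4, 5 and 5. Both genotypes were set against the same WT arrays.

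A probe set that Cyp3a41a and Cyp3a41b share, which named no single gene and so entered no comparison, was higher in QKO than in WT by 1.43 in crypts and 1.91 in villi. It read 7.05, 6.97 and 6.17 in QKO villi and 4.540, 4.914 and 5.005 in WT villi, without overlap. In TKO villi it read 6.23, 4.63 and 5.53. QKO arrays were male and WT arrays female, and the poly-A controls differed between them.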

How the results depend on the processing

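Over 93 pairs of named member and comparison no alternative turned a direction. Calls were lost for 6 pairs under quantile normalization, 9 under centring, 1 without the trend, 6 with the mean of probe sets, 19 with sex as a covariate, 12 of 43 without both WT crypts 3 and Rb crypts 2, and 152 of 600 when 1 array was left out. With the replicate number as a block, Cyp3a44 in Rb villi minus crypts lost its call (0.53, adjusted p = 0.067), and the block changed no other named call. Removal of dim genes left 23 of the 50 members. Counts of called members then became 3 in QKO minus Rb villi, 1 in QKO minus TKO villi, and 1 (Rb) and 2 (TKO) for the difference between villi and crypts. The called members missing from these counts were themselves removed as dim, and of 64 named pairs that stayed 0 lost a call. Centring gave 4 in Rb minus WT villi. Sex as a covariate gave 1 each in Rb minus WT villi, TKO minus WT villi, QKO minus TKO crypts and the Rb difference between villi and crypts. With both WT crypts 3 and Rb crypts 2 left out, Rb villi minus crypts gave 3 and the Rb difference 4. For these the cause was not tested.

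With 1 array left out, counts ran from 26 to 27 in WT villi minus crypts, 3 to 15 in Rb, 2 to 11 in TKO and 11 to 18 in QKO (11 without QKO crypts 3). They ran from 3 to 5 in Rb minus WT villi (3 without WT villi 3 or Rb villi 3, 4 without Rb villi 1 or 2) and 3 to 6 in TKO minus WT villi (3 without TKO villi 2, 4 without TKO villi 3 or any 1 WT villus array). They ran from 3 to 6 in QKO minus Rb crypts, 6 to 10 in QKO minus Rb villi (6 without Rb villi 2), 0 to 1 in QKO minus TKO crypts (1 without QKO crypts 3) and 2 to 4 in QKO minus TKO villi (2 without TKO villi 2 or 3). The difference between villi and crypts gave 1 to 3 for Rb (1 without WT crypts 1, Rb crypts 1, WT villi 3, Rb villi 2 or Rb villi 3) and 1 to 5 for TKO (1 without WT villi 3, TKO villi 2 or TKO crypts 1, 2 without WT crypts 2 or TKO crypts 3, 3 without WT villi 2, TKO villi 1 or TKO villi 3). Both crypt comparisons with WT stayed at 0 calls. Over all genes the share of calls that were higher moved under quantile normalization from 58.1% to 46.2% in Rb minus WT villi, 40.8% to 58.5% in TKO minus WT crypts, 78.0% to 61.3% in QKO minus Rb crypts, 88.7% to 60.3% in QKO minus TKO crypts and 82.6% to 63.9% in QKO minus TKO villi (65.2% when centred), and under centring from 63.9% to 47.0% in QKO minus Rb villi.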

Other observations

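Among 17 measured P450 genes that are not members, Cyp2c55 of family 2 included, 6 were called higher and 3 lower in villi of WT mice (18.8% and 18.6% of all genes). Cyp27a1, a mitochondrial sterol hydroxylase, was higher in villi in all 4 genotypes, by 1.67 in WT, 1.14 in Rb, 1.40 in TKO and 1.07 in QKO. Cyp20a1 was lower in villi in all 4, by -1.47, -0.77, -1.01 and -1.45. Cyp51, which demethylates lanosterol in cholesterol synthesis, differed by -1.19 in WT and Cyp39a1, an oxysterol hydroxylase, by -1.85.

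Cyp4a10, a fatty acid hydroxylase gene that Ppar controls, was read only from a probe set it shares with Cyp4a31. That probe set read 5.10, 6.11 and 5.20 in WT crypts and 8.18, 7.86 and 8.61 in WT villi, a difference of 2.74 that entered no test.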
